A study of Caenorhabditis elegans with 2 samples.

Results

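Peaks of the Hox protein LIN-39 were described at 10 genes of Notch signalling in *Caenorhabditis elegans*: the receptor genes *lin-12* and *glp-1*, the ligand genes *lag-2* and *apx-1*, the receptor processing genes *sup-17* and *sel-12*, the nuclear effector gene *lag-1*, and *dpy-23*, *ark-1* and *lip-1*, which are targets of the lateral signal. The genes were taken from a list by name, and all 10 were found among the 19973 protein-coding genes of the nuclear chromosomes. A peak was counted for a gene when its summit lay in the gene body or up to 2000 bp upstream, a stretch called the gene's window here. Chromatin immunoprecipitation and sequencing (ChIP-seq) had been done on whole L3 larvae of strain OP18, with male and female animals pooled and an age that the labels give as unknown. The genotype is unc-119(ed3) III; wgIs18, where wgIs18 is the insertion that carries eGFP-tagged *lin-39*, and both samples carry it. The 2 samples are biological replicates of this single group, so no contrast between conditions exists and no test was made. The tagged protein came from an inserted copy of the gene, and whole animals cannot show in which cells a peak arose.

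Notch receptors are activated by DSL ligands on neighbouring cells, cut first by an ADAM protease and then by the presenilin complex, and release an intracellular part that enters the nucleus and acts with the DNA-binding CSL protein LAG-1. In the larva, LIN-12 carries the lateral signal among vulval precursor cells: the cell that receives most of the inductive EGF signal makes DSL ligands, and its neighbours, which take the secondary fate, switch on genes that dampen EGF receptor and MAP kinase signalling. LIN-39 keeps these precursor cells competent and binds DNA together with the Pbx-type cofactor CEH-20, for which the letters TGATNNAT stand here as the composite Hox-Pbx motif. LAG-1 is known to bind sequences with the core RTGGGAA, searched here as ATGGGAA or GTGGGAA and called LAG-1 sites. All motifs were searched on both strands, and a match of one motif may overlap a match of the other. A match is a match of letters, with no evidence of binding.

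The sequences below are the centres of peaks at *lin-12*, *glp-1*, *lag-1*, *dpy-23* and *ark-1*, read from the ce11 reference, 60 bp to each side of the summit and 5′ to 3′ on the strand of the gene. They are shown because they hold the strongest peaks of the receptor genes, of the nuclear effector gene and of the pair of lateral signal targets with the highest signal. Capitals mark TGATNNAT or a LAG-1 site on either strand, so that TTCCCAC is GTGGGAA and ATCCATCA is TGATGGAT read from the other strand.
*lin-12* (intron 2, chrIII:9068597-9068717, minus strand): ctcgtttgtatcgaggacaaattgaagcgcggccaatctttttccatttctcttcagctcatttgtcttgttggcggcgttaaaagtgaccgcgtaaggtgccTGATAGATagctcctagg
*glp-1* (intron 2, chrIII:9093809-9093929, plus strand): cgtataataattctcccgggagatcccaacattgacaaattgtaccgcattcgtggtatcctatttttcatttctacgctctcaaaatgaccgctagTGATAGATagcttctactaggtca
*lag-1* (intron 1, chrIV:6097174-6097294, plus strand): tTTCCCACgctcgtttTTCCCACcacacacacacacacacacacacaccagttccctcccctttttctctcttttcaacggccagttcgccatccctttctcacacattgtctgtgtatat
*dpy-23* (upstream, chrX:4389035-4389155, plus strand): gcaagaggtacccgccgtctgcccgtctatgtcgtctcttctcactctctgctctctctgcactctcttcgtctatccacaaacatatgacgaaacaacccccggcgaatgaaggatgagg
*ark-1* (upstream, chrIV:12632425-12632545, minus strand): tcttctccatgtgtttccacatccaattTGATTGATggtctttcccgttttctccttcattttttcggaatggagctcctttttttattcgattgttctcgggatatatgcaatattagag
The *lin-12* and *glp-1* stretches each hold TGATAGAT, 43 and 37 bp from their summits. The *lag-1* stretch holds GTGGGAA at 2 places, 38 and 53 bp from its summit, and the *ark-1* stretch holds TGATTGAT 25 bp from its summit. The *dpy-23* stretch, which has the highest signal of the 10 genes, holds neither motif and has a GC content of 53.7%, against 37.2% for *ark-1*, 40.5% for *glp-1*, 47.1% for *lin-12* and 48.8% for *lag-1*. Among strongest peaks not printed, the *lag-2* stretch has a higher GC content, 57.0%, and also neither motif, at a signal of 17.1. Those of *apx-1*, *sel-12* and *lip-1* have 50.4%, 47.1% and 37.2%. No GC content is given for *sup-17*, whose optimal peak also holds neither motif, nor for all optimal peaks.

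The files hold peaks, not reads. The authors' list of reproducible peaks, called optimal here, has 4250 peaks with a signal of 33.1 to 542 (median 52.6), and these are the 4250 strongest of the 30000 peaks of the pooled list of both replicates, whose median signal was 11.9. Replicate 1's own relaxed list holds 30000 peaks and that of replicate 2 holds 27572. Ranks below count from the strongest peak of a list. The pooled list ran down to a signal of 6.5. It was deposited as peaks and background, so an entry in it need not be a true peak. Of all pooled peaks, 72.0% overlapped a peak of replicate 1, 60.4% one of replicate 2 and 40.1% one of each. Each signal is the authors' value for the peak, with no error of its own, and read depth is unknown. Scales differ between lists, so only ranks were set side by side across lists.

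Of the 10 genes, 4 had an optimal summit: *dpy-23*, *lag-1*, *sup-17* and *lin-12*, with 1 summit each. Over all protein-coding genes 19.2% had an optimal summit. The 10 windows were long, with a median of 7951 bp against 4027 bp over all genes, and 9 of the 10 exceeded that median; among genes with windows in the range of the 10, from 3773 to 17249 bp, the share was 22.9%. All 10 genes had a pooled summit, 36 summits in total, against 61.5% of all genes and 70.7% of genes with windows in the same range. Strength varied at the genes without an optimal summit. There the strongest entry had a −log10 q-value of 1.64 (*glp-1*), 1.56 (*lag-2*), 0.98 (*apx-1*), 2.22 (*sel-12*), 3.95 (*ark-1*) and 1.01 (*lip-1*). All optimal peaks have 3.95. The strongest pooled signal per gene had a median of 26.9 over the 10 and of 9.1 over all genes. The latter median counts genes without a pooled summit as having no signal. These medians were not matched for window length, so the longer windows of the 10 enter the difference. Pooled summits per kb of window had a median of 0.358 over the 10 and 0.238 over all genes. With 10 genes, no test was made of the share with an optimal summit.

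**Figure D1:**
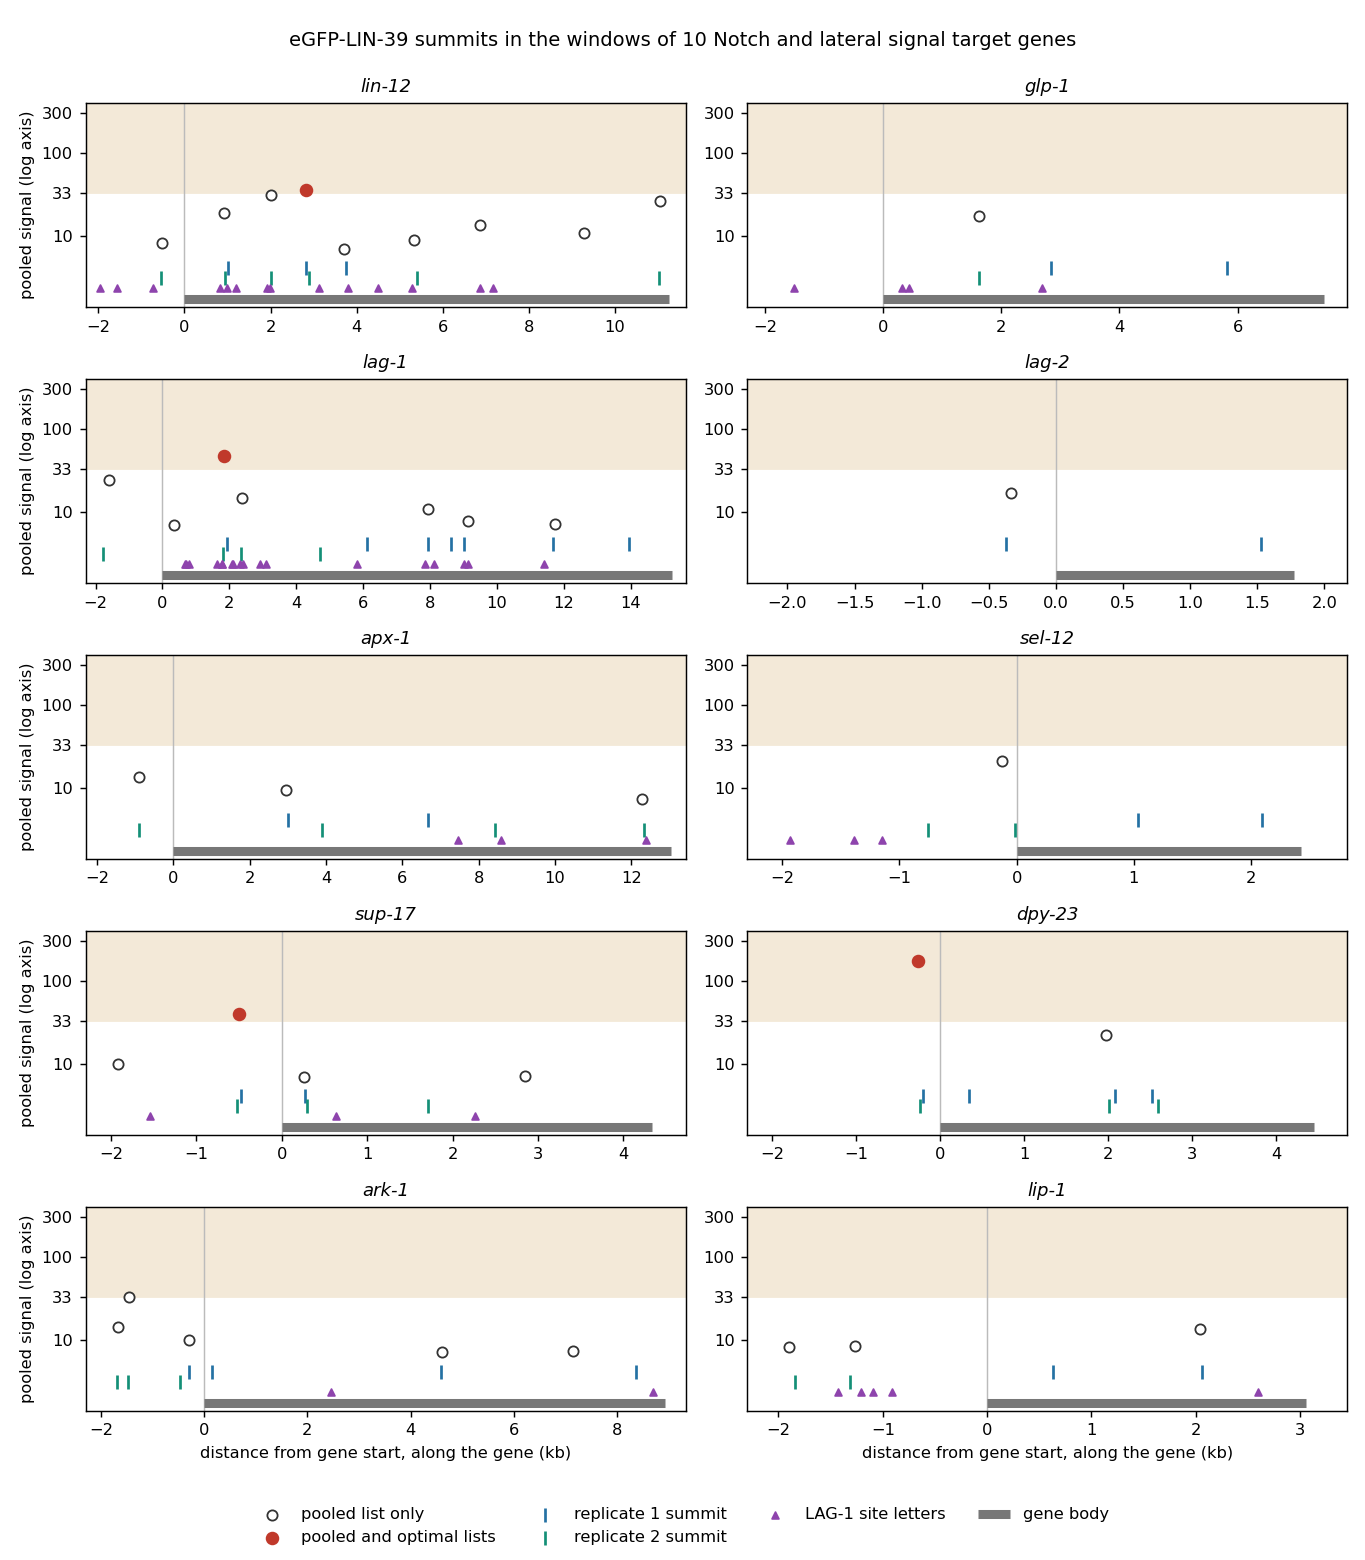
Positions of summits in each gene's window, as distance from the gene start along the gene in kb (grey bar, gene body), with pooled signal on a log axis. Red points are summits in the pooled and optimal lists, open points are in the pooled list alone, ticks are summits of each replicate's relaxed list, triangles are LAG-1 sites, and the shaded band starts at 33.1, the lowest signal of the optimal list. The red points of *dpy-23* and *sup-17* lie upstream of the gene start and those of *lin-12* and *lag-1* lie inside introns, while the *ark-1* point at 32.5 lies just under the band.

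Of the 36 pooled summits, 13 lay upstream of the gene, 12 in introns, 9 in coding exons, 1 in a 5′ UTR and 1 in a 3′ UTR. For 30 of them the nearest start of any protein-coding gene was that of the gene itself. In each replicate's relaxed list the 10 genes had 30 summits in replicate 1, with all 10 genes represented, and 28 in replicate 2, with 9 genes represented and *lag-2* missing; over all genes, 66.6% had a summit in the relaxed list of replicate 1 and 53.5% in that of replicate 2.

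The receptor genes *lin-12* and *glp-1* lie 20768 bp apart on chromosome III, and both had their strongest pooled peak in intron 2. *lin-12*, which encodes the receptor of the lateral signal, had 9 pooled summits, more than any other of the 10 genes. Its optimal peak (ce11, III:9068499-9068814) lay 2815 bp inside the gene with a signal of 35.4, rank 3890 of the pooled list, rank 1932 in replicate 1 and rank 5637 in replicate 2. Of all genes, 18.0% had a peak at least that strong. A second intron 2 peak (III:9069300-9069615), 2014 bp inside the gene, missed the optimal list with a signal of 31.6 at rank 4489; replicate 2 had it at rank 2737, ahead of the optimal one, and replicate 1 did not list it. A further peak of *lin-12* (III:9060252-9060567), in a coding exon close to its 3′ end, had a signal of 26.3, was again listed by replicate 2 alone (rank 2892), and lay nearer to the start of *gst-1* than to that of *lin-12*. So the replicates placed the strongest signal of *lin-12* at different points of the gene. The remaining 6 summits had signals of 6.96 to 18.7, the highest of them in intron 1, 925 bp inside the gene, where both replicates had a peak (ranks 14754 and 9687), and 1 of them lay upstream of the gene start, 522 bp away with a signal of 8.23.

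*glp-1* encodes the other receptor, best known for keeping germline stem cells from entering meiosis. It had a single pooled peak (III:9093711-9094026), 1628 bp inside the gene, with a signal of 17.6 at rank 9148, and 31.0% of all genes had one as strong. Replicate 2 listed it at rank 5725; replicate 1 had no peak there, and its best summit in the *glp-1* window, in a coding exon, ranked 15165. The peak is thus well below the optimal list and rests on 1 replicate. It also held TGATNNAT at 2 further places, 99 and 135 bp from the summit. The second intron 2 peak of *lin-12* is shown for its LAG-1 sites, at 30 and 93 bp from its summit, with TGATGGAT 111 bp from it.
*lin-12* (intron 2, second peak, 120 bp to each side of the summit, chrIII:9069338-9069578, minus strand): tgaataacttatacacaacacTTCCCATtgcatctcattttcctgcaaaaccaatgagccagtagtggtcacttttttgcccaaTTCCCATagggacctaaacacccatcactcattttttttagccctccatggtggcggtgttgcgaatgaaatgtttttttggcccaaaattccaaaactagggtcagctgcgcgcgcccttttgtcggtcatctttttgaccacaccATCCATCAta

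The DSL ligand genes of the list had no optimal summit, where 19.2% of all genes had one. *lag-2*, which encodes the main ligand of the distal tip cell and of the vulval lateral signal, had 1 pooled peak (V:3187851-3188166), 334 bp upstream of its start, with a signal of 17.1 at rank 9500. Replicate 1 ranked it 4483, just past its 4250 strongest, and replicate 2 had no summit in the *lag-2* window. *apx-1*, which encodes the ligand of the early embryo and also takes part in the lateral signal, lies 20080 bp from *lag-2*. It had 3 pooled peaks in a window of 15026 bp, of which the strongest (V:3209151-3209466) lay 887 bp upstream with a signal of 13.5 at rank 12722 and was listed by replicate 2 alone, at rank 14272. Its other peaks had signals of 9.59 in intron 3 and 7.29 in the 3′ UTR. *apx-1* had the lowest best signal of the 10 genes, and 37.5% of all genes had a peak as strong.

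Of the processing genes, *sup-17* had an optimal summit and *sel-12* did not. *sup-17* encodes the ADAM protease that makes the first cut of the receptor. Its optimal peak (chromosome I, 8792306 to 8792621) lay 500 bp upstream with a signal of 40.2, rank 3235 of the pooled list. In replicate 1 it had rank 3486, and in replicate 2 rank 4553. The noncoding RNA gene *DY3.11* lay within 200 bp of the summit, and the peak may belong to either gene. The other 3 pooled summits of *sup-17* had signals of 6.89 to 9.9. *sel-12* encodes a presenilin, the catalytic part of the protease that makes the second cut. Its single pooled peak (X:915587-915902), 122 bp upstream, had a signal of 21.2 at rank 7360; replicate 2 ranked it 4467, and replicate 1 had no peak there. Hence the *sel-12* peak, like that of *glp-1* and the strongest of *apx-1*, was listed by replicate 2 alone.

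*lag-1* encodes the DNA-binding protein of the pathway. Its optimal peak (IV:6097076-6097391), in intron 1 and 1827 bp inside the gene, had a signal of 47.1 at rank 2533, and was among the 4250 strongest of both replicates, at rank 1495 in replicate 1 and 2298 in replicate 2. Of all genes, 13.0% had a peak as strong. A neighbouring peak of the same intron, 2385 bp inside the gene, had a signal of 14.6 and was listed by replicate 2 alone (rank 5506). It held GTGGGAA at 2 places as well, 32 and 70 bp from its summit. Another peak, 1607 bp upstream of *lag-1* with a signal of 24.3, lay 120 bp upstream of *cpi-1* and so counts for *cpi-1* and *K08B4.7* too. The remaining 4 summits of *lag-1* had signals of 7.02 to 10.8.

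The lateral signal targets gave both the highest signal of the list and some of the lowest. *dpy-23* encodes the mu subunit of the clathrin adaptor AP-2, which serves receptor endocytosis. Its optimal peak (X:4388937-4389252), 264 bp upstream, had a signal of 173 at rank 103 of the pooled list, 141 in replicate 1 and 120 in replicate 2. It was the highest of the 10 genes in every list, and 0.751% of all genes had a peak as strong. The noncoding RNA gene *R160.8* lies within 200 bp of the summit. Past the 3′ end of *dpy-23*, a further optimal peak (X:4395498-4395813) with a signal of 86.5 had the *dpy-23* start as its nearest, 6297 bp away, and is not counted in the window. A second peak of *dpy-23* in a coding exon, 1977 bp inside the gene, had a signal of 22.2 and was listed by both replicates at ranks 7493 and 9384.

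*ark-1* encodes an Ack-related tyrosine kinase that lowers EGF receptor signalling. It fell just short of the optimal list: its strongest peak (IV:12632327-12632642), 1463 bp upstream, had a signal of 32.5 at rank 4343, where the optimal list ends at 33.1. Its deposited −log10 q-value was at the ceiling of 3.95 that all optimal peaks have. The strongest peaks of the other genes without an optimal summit had 0.98 to 2.22. Replicate 2 ranked it 1604 and replicate 1 did not list it, and the next peak, 1664 bp upstream with a signal of 14.5, was also listed by replicate 2 alone (rank 7056). *lip-1* encodes a MAP kinase phosphatase. Inside its window the best of 3 pooled peaks, in intron 8, had a signal of 13.7 at rank 12466 and was listed by replicate 1 alone, at rank 11022. The other 2, at 1267 and 1897 bp upstream, had signals of 8.41 and 8.13 and were listed by replicate 2 alone. Farther upstream, outside the window, lay 2 optimal summits whose nearest protein-coding start was that of *lip-1*: one (IV:6839116-6839431) 3684 bp upstream with a signal of 48.2, and the other (IV:6836781-6837096) 6019 bp upstream with a signal of 73.9. The window of 2000 bp thus decided that *lip-1* is counted without an optimal summit.

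**Figure D2:**
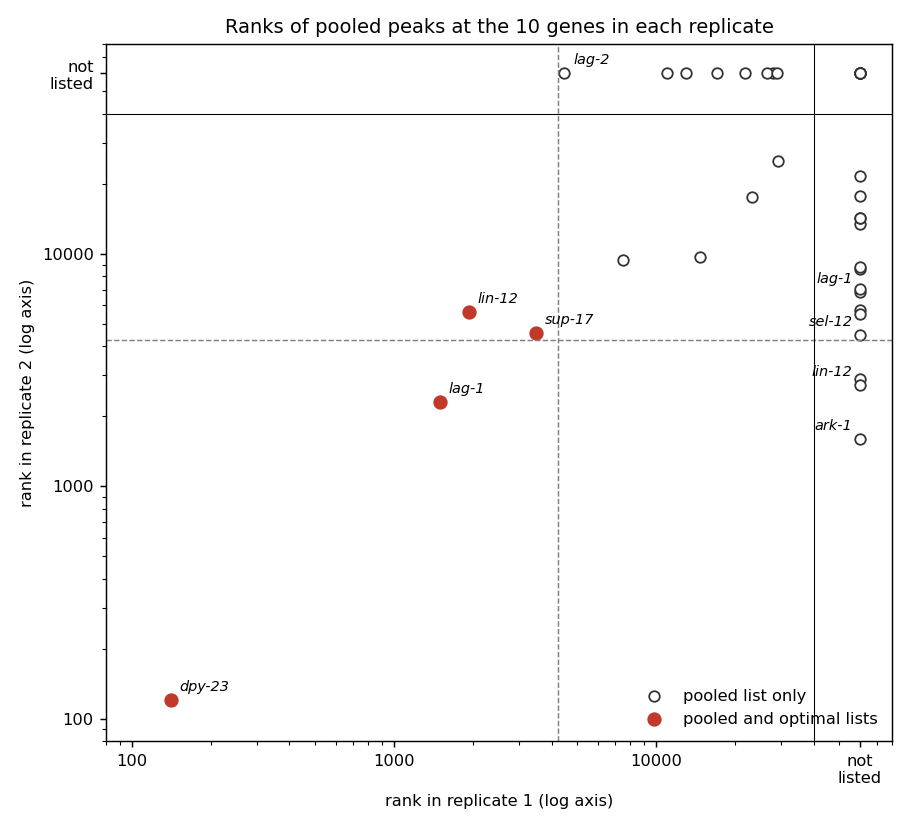
Rank of each of the 36 pooled peaks at the 10 genes in the relaxed list of replicate 1 (horizontal, log axis) and replicate 2 (vertical, log axis), with peaks that a replicate did not list in the margins and dashed lines at rank 4250. Filled points are optimal peaks; *dpy-23* and *lag-1* lie inside both lines, *lin-12* and *sup-17* inside that of replicate 1, and 1 peak of *ark-1* and 2 of *lin-12* lie inside the line of replicate 2 but in the margin of peaks that replicate 1 did not list.

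The 10 genes rested on the replicates unequally. Among each replicate's own 4250 strongest peaks, replicate 1 had summits at *lin-12*, *lag-1*, *sup-17* and *dpy-23*, and replicate 2 at *lin-12*, *lag-1*, *dpy-23* and *ark-1*, 4 genes each, against 18.3% and 19.0% of all genes. Of the 4 optimal peaks, 2 overlapped a peak among the strongest of both replicates, those of *lag-1* and *dpy-23*; over all optimal peaks this share was 56.7%. All 4 overlapped a peak of both relaxed lists. The optimal list was itself made with both replicates, so this overlap is no separate support. Its share over all optimal peaks is not given here. Of the 36 pooled peaks at the 10 genes, 8 overlapped a peak of both relaxed lists (22.2%), 8 of replicate 1 alone (22.2%), 15 of replicate 2 alone (41.7%) and 5 of neither (13.9%). Over all 30000 pooled peaks these shares were 40.1%, 31.9%, 20.3% and 7.7%. These are counts of 36 peaks from 10 genes, and the difference from all pooled peaks was not tested. The 2 lists share their control alignments and are therefore not fully independent of each other.

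Within 50 bp of their summits, TGATNNAT stood at 1 of the 4 optimal peaks (*lin-12*) and a LAG-1 site at 1 (*lag-1*). Over all 4250 optimal peaks these shares were 8.92% and 2.99%, and with windows of 150 bp to each side 21.3% and 11.2%. Outside the optimal list, the strongest peaks of *glp-1* and *ark-1* also held TGATNNAT within 50 bp. No share over all such peaks is given here. The whole windows of *glp-1*, *lin-12* and *dpy-23* were rich in TGATNNAT, with 2.01, 1.58 and 1.4 per kb, while *ark-1* had 0.64. The optimal peak of *dpy-23* held no TGATNNAT. The median was 1.12 per kb over the 10 genes and 0.904 over all genes, whose middle range ran from 0.568 to 1.3. LAG-1 sites themselves were spread over the genes unevenly. *lag-1* had 18 in its window (1.04 per kb) and *lin-12* had 14 (1.06 per kb), and 7 of each lay inside pooled peaks. Some of these peaks were weak, with signals of 6.96, 8.86 and 13.6 at *lin-12* and of 7.73 and 10.8 at *lag-1*. The optimal peak of *lag-1* held LAG-1 sites and that of *lin-12* held none. These genes also had the most pooled summits of the 10, with 7 at *lag-1* in 17249 bp and 9 at *lin-12* in 13252 bp. Pooled peaks had a median width of 316 bp. The share of LAG-1 sites inside pooled peaks over all genes is not given here, so these counts have no background beside them. *lip-1* had 5 (0.989 per kb), 1 of them inside a pooled peak. *glp-1* had 4, *apx-1*, *sel-12* and *sup-17* had 3 each, *ark-1* had 2, and *lag-2* and *dpy-23* had none. Over the 10 genes the median was 0.448 per kb, against 0.283 over all genes, whose middle range ran from 0 to 0.464. The order of the genes by LAG-1 sites was not that by signal: *dpy-23* had the highest signal and no site.

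**Figure D3:**
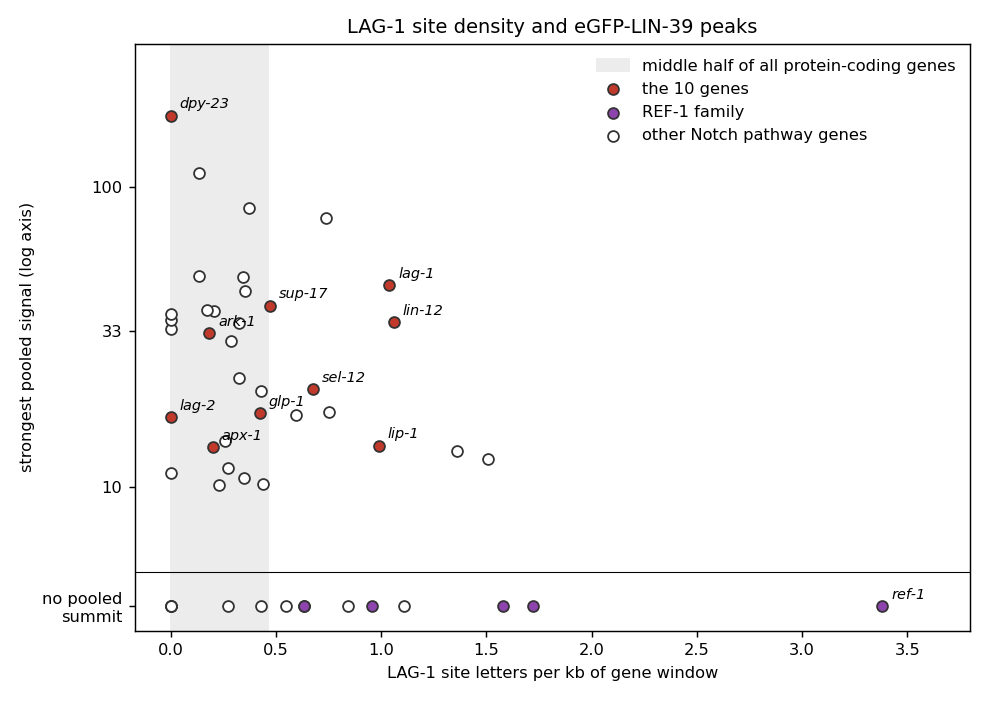
LAG-1 sites per kb of window against the strongest pooled signal in the window (log axis) for the 10 genes (red), the REF-1 family (purple) and other Notch pathway genes (open), with genes without a pooled summit below the line. The shaded band is the range from 0 to 0.464 sites per kb that holds the central part of all protein-coding genes; *lag-1* and *lin-12* lie right of it with an optimal summit, and *ref-1*, at 3.38 per kb, has no pooled summit.

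The wider pathway was described with a list of 40 further genes, of which 39 were found. An optimal summit was present at 12 of the 39 (30.8%), against 19.2% of all genes, with a median window of 3965 bp; 25 had a pooled summit, where 61.5% of all genes had one. All 3 genes of the nuclear complex and its turnover had an optimal summit. Their windows were long, with a median of 7378 bp and 16192 bp for *sel-8*. *sel-8*, which encodes the Mastermind-like coactivator that joins LAG-1 and the receptor's intracellular part, had 4 optimal summits with signals of 41.6 to 85.0, and its strongest peak ranked 962 in replicate 1 and 1054 in replicate 2. *emb-5*, the Spt6 gene, had peaks with signals of 111 and 71.2, both also in the window of *acy-1*, which has the nearer start for the stronger one. *sel-10*, the gene of the F-box protein that turns the intracellular part over, had a peak with a signal of 44.8, 149 bp upstream, ranked 9458 in replicate 1 and 1652 in replicate 2. Among the 4 further lateral signal targets found, *lst-4* (signal 78.7, 1265 bp upstream, with a nearer start of *ccar-1*) and *lst-2* (signal 50.3, 1954 bp upstream) had optimal summits. *lst-2* and *dpy-23* are neighbours, transcribed away from each other with 5992 bp between them, and the *lst-2* peak lies 4039 bp upstream of *dpy-23*.

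Of the other pathway genes, optimal summits lay at 3 of 5 DOS-motif co-ligand genes (*osm-11*, *dos-1* and *dos-3*, with signals of 33.6, 38.4 and 38.7), at 1 of 5 processing genes (*pen-2*, 35.9, in a window shared with *T28D6.6*) and at 3 of 7 further modifiers. These modifiers were *sel-5*, with a signal of 50.2 in a window shared with *wdr-48*, *sel-7* with 37.8 and *sel-2* with 35.2, the last nearest to the start of *mab-21*. The peak of *dos-3* lay nearest to the start of *zip-2*. The 8 other DSL ligand genes had no optimal summit, like *lag-2* and *apx-1*, where 19.2% of all genes had one. Of the 8, whose windows had a median of 3656 bp, 3 had a pooled summit, against 61.5% of all genes. With so few genes these differences were not tested. The REF-1 family, basic helix-loop-helix genes that Notch signalling switches on in the embryo, had 6 genes and no summit in the optimal or pooled list. *ref-1* had 12 LAG-1 sites in its window. The *hlh* genes of this family share sequence: *hlh-28* and *hlh-29* had 91.7% of their 50-base stretches in common with each other, *hlh-26* had 86.0% and *hlh-25* 78.7% in common with the other of that pair, and *hlh-27* had 30.0% in common with *hlh-25*. What this does to peak calls there was not tested; *ref-1* itself shared 0%. None of the 16 optimal peaks at these other genes had either motif within 50 bp. Over all 4250 optimal peaks, 8.92% had TGATNNAT and 2.99% a LAG-1 site there, and with 16 peaks the difference was not tested.

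**Figure D4:**
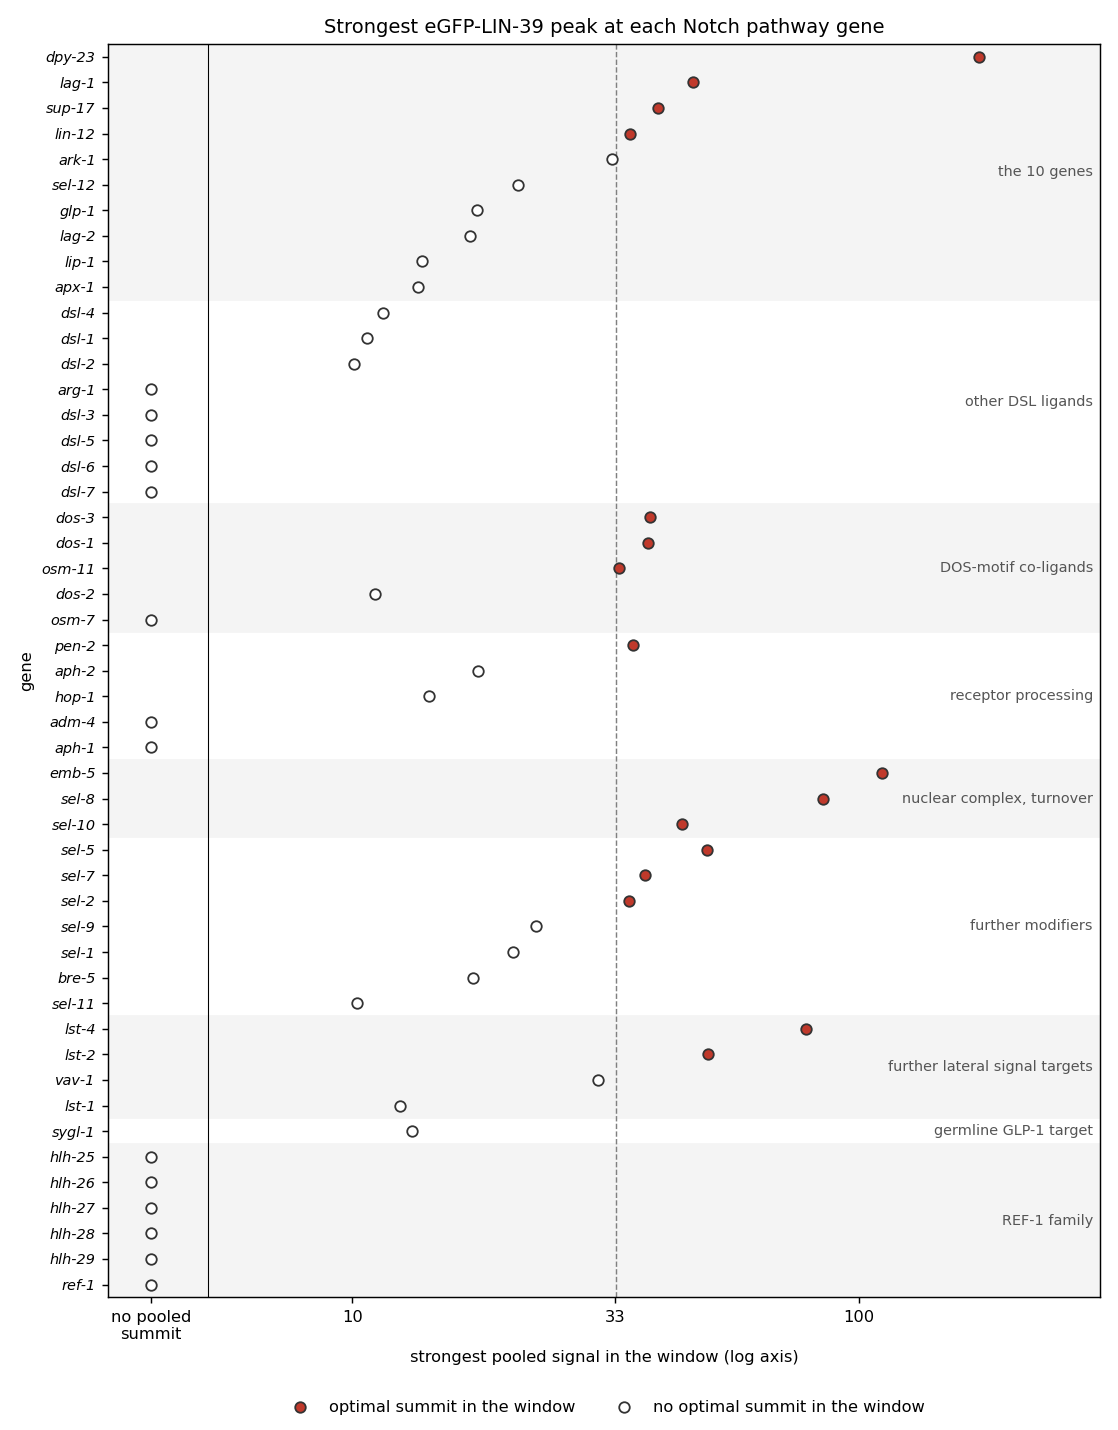
Strongest pooled signal in the window (horizontal, log axis) of each of the 10 genes and the 39 other Notch pathway genes (rows, grouped by role), with genes without a pooled summit at the left. Filled points have an optimal summit and the dashed line is the lowest optimal signal, 33.1. All 3 genes of the nuclear complex and its turnover and 3 of 5 co-ligand genes lie right of it. No DSL ligand gene does, and over all protein-coding genes 19.2% have an optimal summit.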

How the data were processed

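The data are peak lists of eGFP-LIN-39 ChIP-seq from 2 biological replicates, made from fragments of 150 to 350 bp per the labels. The text indexes that the authors deposited say that each replicate's relaxed list came from its own alignments and control alignments shared by both, the pooled list from both replicates, and the optimal list from the pooled list and both replicates. Which aligner and peak caller were used, at which depth and threshold, is not given in the sources used here. Signals are the authors' deposited values, in the units of their peak caller, and served for ranking inside 1 list at a time. Deposited −log10 q-values, also from the authors, stop at a ceiling (3.95 in the optimal and pooled lists, 3.76 in replicate 1 and 4.08 in replicate 2) and served for no ranking. The deposited offset of the summit from the peak's start, in bp, gave its position.

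Lists on ce11 were used; copies on ce10 were not used here. Genes came from Ensembl release 115 (WBcel235, the assembly of ce11), and sequences and motif positions from the RefSeq sequence of the same assembly. A summit was counted for each gene whose body or 2000 bp upstream held it, and a peak was shared by 2 lists when they overlapped by at least 1 bp. The 4250 strongest peaks of each replicate stood for it alone. Python 3.11.15 and pandas 2.3.3 were used, and the window counts were checked on simulated data. Named are the 10 genes, every other pathway gene with an optimal summit, and genes that share or lie nearest to a peak described; genes without an optimal summit in the wider list are given by count, except *ref-1* and the *hlh* genes, named after their values were seen. *lst-3* was the listed gene without a gene of that name in the annotation. The genes and lists were chosen with earlier results of these data known. With 1 group and no contrast there are no tests. The alternatives tried were the 1000 strongest optimal peaks, each replicate alone, windows of 1000 and 5000 bp upstream, the nearest gene start, peak midpoints, other rules of overlap and other motif distances.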

Additional observations from a re-analysis of the deposited data

How the results depend on the processing

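Of 30 values computed under alternatives, 21 stayed within 1.5 times the reported one and 9 moved. With the 1000 strongest optimal peaks, the count of the 10 genes with an optimal summit fell from 4 to 1 (*dpy-23*), their summits from 4 to 1, the other pathway genes from 12 to 3, and the peaks with TGATNNAT or a LAG-1 site from 1 to 0 each. Motifs within 25 bp of the summit gave 0 for each. Giving each summit to the nearest gene start gave 7 summits, and whole relaxed lists gave 4 peaks found in both replicates in place of 2. The overlap with whole relaxed lists is no separate support, since the optimal list was made with both replicates. Leaving out replicate 1 or 2 gave 4 genes each time, with *ark-1* in place of *sup-17* in replicate 2's own list, and 5 and 4 summits. A window of 5000 bp upstream gave 5 genes, with *lip-1* added. For the 1000 strongest peaks, the other windows and the nearest gene start, the share of all genes is not given here. Those counts therefore have no background beside them. No paired analysis was possible because there is a single group. Without read counts, no depth, interval or floor could be given, and a peak missing from a list is not shown to be absent; 2 samples and 10 genes limit every share given.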

Other observations

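The intron 2 stretches printed for *lin-12* and *glp-1* share letters, which was noticed after the sequences were seen. Their longest common run on the strand of the gene is tgatagatagct, 12 bases, which occurs 6 times in the ce11 genome on both strands; 1 of these places lies within 60 bp of an optimal summit and 3 lie within 60 bp of a pooled one. The place near an optimal summit is the *lin-12* stretch itself, and the places near a pooled summit include both the *lin-12* and the *glp-1* stretch. In both stretches TGACCGC precedes TGATAGAT, by 10 bases in *lin-12* and 3 in *glp-1*. Over all 4250 optimal peaks, TGACCGC was found within 60 bp of 49 summits (1.15%), TGATAGAT at 17 (0.4%) and both at 2 (0.0471%). Each of these counts includes the *lin-12* peak from which the letters were taken, so they are not independent of it. No test was made of this likeness.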
